A study of Mus musculus with 4 samples.

Results

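Amino acid and neurotransmitter transporters of the solute carrier families SLC1, SLC6, SLC7, SLC17, SLC32, SLC36 and SLC38 were examined in RNA sequencing of the mouse prelimbic cortex, a medial prefrontal area. Members were the protein-coding genes whose symbol places them in one of these 7 families. The tables held 44 of them among 19175 genes, 27 of 12318 genes in the stress table and 37 of 15396 in the table of adeno-associated virus (AAV). The study has 4 libraries, 1 for each group, all from C57BL/6 mice aged 8 weeks. The stress pair is a control library and a library from mice susceptible to chronic social defeat, in which an aggressor repeatedly attacks the mouse. The labels put the same stress tag on control and susceptible, so what the controls went through is not clear. The other pair is from mice given AAV-GFP, which expresses green fluorescent protein, or AAV-CDYL, which expresses the chromatin corepressor CDYL. The labels do not give a promoter, a serotype or the cells that took up virus, nor whether a library was 1 mouse or a pool.

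Values are FPKM, which count fragments relative to transcript length and library size and were made by the authors with Cuffdiff. Levels were compared as log2(FPKM + 1). A gene with 1 FPKM or more in either library, here called past the floor, was higher or lower if this value differed by 0.585 or more, which is 1.5-fold. This is a rule of size. With 1 library per group there is no replicate check, no test was possible, and each difference describes these libraries. Effective depth, estimated from the spacing of low FPKM values, came to 14400000 fragments (control), 23500000 (susceptible), 22300000 (AAV-GFP) and 23600000 (AAV-CDYL). A transcript of 2 kb at 1 FPKM was then backed by 28.8 to 47.2 fragments. The transcript of the delivered gene checked the label: AAV-CDYL had 1052 FPKM of Cdyl and AAV-GFP 2.68.

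In cortex, glutamate and GABA are loaded into synaptic vesicles by proton-driven carriers of the SLC17 and SLC32 families. After release, sodium-driven carriers of the SLC1 and SLC6 families take transmitter back up, with astrocytes clearing most of the glutamate. Astrocytes return it to neurons as glutamine, which SLC38 carriers move across both membranes. SLC7 carriers exchange cationic and large neutral amino acids and cystine, several of them bound to the heavy chain Slc3a2, and SLC36 carriers export amino acids from lysosomes.

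Promoter sequence is shown for 3 members: Slc7a11 and Slc36a1, whose windows repeat a known motif, and Slc7a7, the member with the largest ratio in the AAV pair past the floor. Windows of 300 bases, from 250 before to 50 after the RefSeq start site nearest to the gene's annotated start (build GRCm38.p6), were found for 50 of the 69 annotated members. Capitals mark TGATGNAA, the composite site recognised by ATF4, the factor of the amino acid stress response, or CACGTGAC, the E-box of lysosomal genes bound by TFEB, each searched on both strands. These motifs were chosen after the windows had been seen, and no match of one overlapped the other in these windows.
Slc7a11, chr3:50443564-50443863, minus strand: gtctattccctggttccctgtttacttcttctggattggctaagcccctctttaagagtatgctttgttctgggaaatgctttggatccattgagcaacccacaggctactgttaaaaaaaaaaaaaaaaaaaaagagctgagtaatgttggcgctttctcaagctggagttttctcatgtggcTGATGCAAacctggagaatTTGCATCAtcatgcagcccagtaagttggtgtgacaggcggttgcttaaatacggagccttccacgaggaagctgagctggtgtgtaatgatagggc
Slc7a7, chr14:54417653-54417952, minus strand: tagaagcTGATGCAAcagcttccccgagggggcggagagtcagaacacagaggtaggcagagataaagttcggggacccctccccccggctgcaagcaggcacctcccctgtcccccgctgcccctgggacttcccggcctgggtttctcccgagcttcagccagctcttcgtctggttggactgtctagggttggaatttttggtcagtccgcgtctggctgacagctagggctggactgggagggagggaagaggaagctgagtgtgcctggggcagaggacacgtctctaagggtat
Slc36a1, chr11:55204090-55204389, plus strand: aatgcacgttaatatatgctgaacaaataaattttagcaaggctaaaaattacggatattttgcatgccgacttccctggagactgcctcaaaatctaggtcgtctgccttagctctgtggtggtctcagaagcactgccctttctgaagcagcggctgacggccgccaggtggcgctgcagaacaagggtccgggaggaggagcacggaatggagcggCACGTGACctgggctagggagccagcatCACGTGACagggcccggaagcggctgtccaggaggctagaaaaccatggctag

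The Slc7a11 window holds the ATF4-type site 2 times, at base 185 and, on the opposite strand, at base 204, counted from 1 at the window's 5′ end. The Slc7a7 window holds it 1 time, at base 8. It lay in 5 of the 50 member windows, or 10%, and in 3.97% of 32851 promoter windows of the same length. The E-box lay in 2 member windows, or 4%, against 2.25% of all windows, and at bases 220 and 248 of the Slc36a1 window. A match describes these letters only.

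Of the 69 annotated members, 25 were in neither table and 20 were in both. Among genes above 0 in both libraries of a pair, the smallest listed log2 ratio was 0.32 in size. Genes with smaller differences therefore carry no value here, and an unlisted member is not shown to be alike. Among the unlisted are Slc1a2, the main glutamate carrier of astrocytes, Slc6a11, a GABA carrier of astrocytes, Slc17a6, the vesicular glutamate carrier of thalamic neurons, and Slc38a1 and Slc38a2, glutamine carriers. The symbol rule also covers Slc7a6os, which is no transporter and was in neither table. Past the floor were 16 of the 27 members in the stress table and 27 of the 37 in the AAV table.

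In the AAV pair, the neuronal transporters past the floor lay below AAV-GFP and the glial ones above it. The neuronal list holds 16 genes, of which 11 were listed and 8 past the floor. All 8 lay below AAV-GFP, with a median difference of -0.54, and 2 of them were lower by the size rule. The glial list holds 8 genes, of which 4 were listed and past the floor. Slc1a2, Slc1a4, Slc6a11 and Slc7a10 have no value in this pair. All 4 listed glial members lay above AAV-GFP, with a median of 0.66, and 3 were higher by the size rule. Over all 8047 genes past the floor the median was 0.30, with 53.4% above and 46.6% below AAV-GFP. By the size rule 31.3% of them were higher and 14.4% lower. The sign of that median turned with the floor: it was -0.32 with the floor set in AAV-GFP alone, which all 12 genes met, and -0.34 with a floor of 5 FPKM in either library. None of the 12 entered through its AAV-CDYL value. Without genes in a shared Cuffdiff locus, 5 of 5 neuronal members lay below and the glial list came down to Slc38a3. In bulk tissue, fewer cells of a type and less RNA per cell cannot be told apart.

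**Figure D1:**
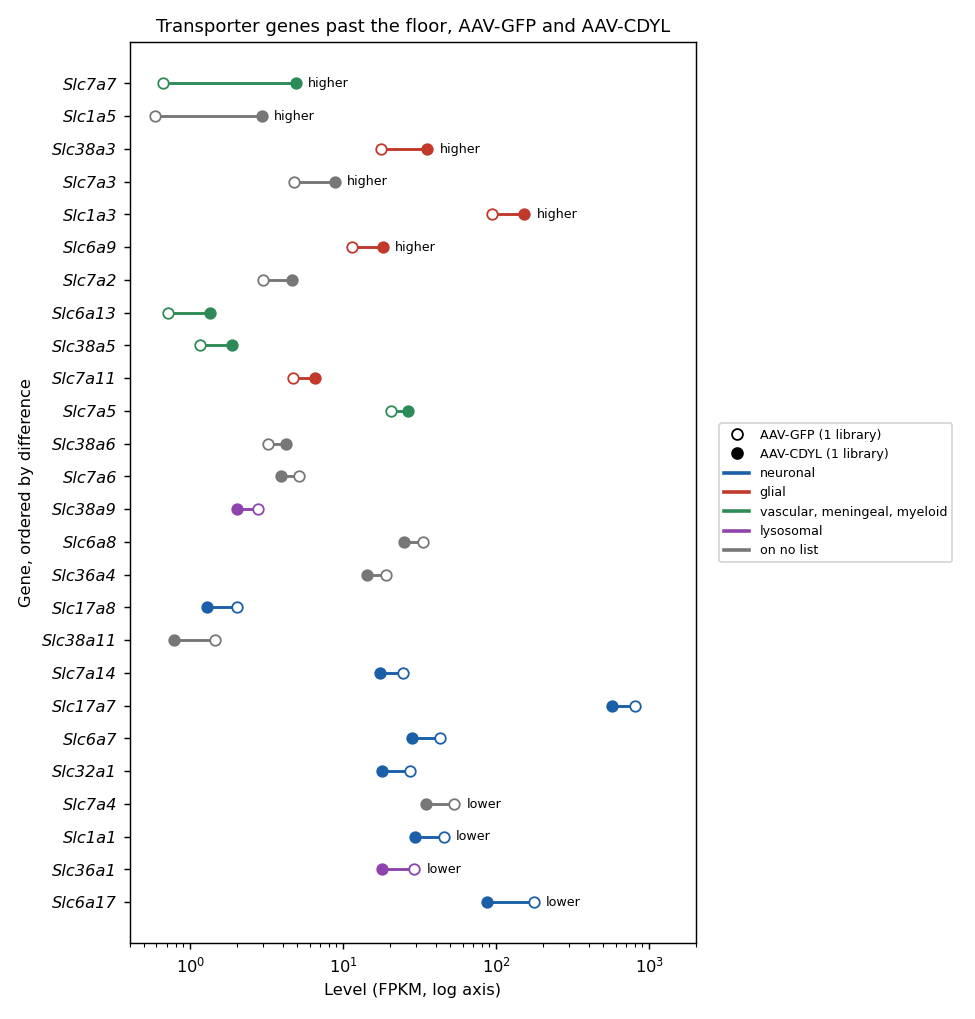
Level of 26 of the 27 members past the floor in the AAV pair, in FPKM on a log axis, with open circles for the AAV-GFP library and filled circles for the AAV-CDYL library, and line colour for the gene list. The words mark genes past the size rule; the 7 neuronal members drawn (blue) all have the filled circle on the left, and the 4 glial members (red) all have it on the right.

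Among vesicular carriers, Slc17a7, which loads glutamate in cortical excitatory neurons (chromosome 7, 45163921 to 45176138), was the most abundant listed member at 803 FPKM in AAV-GFP and 568 in AAV-CDYL. Its difference of -0.50 did not pass the size rule. Slc32a1, the vesicular carrier of GABA and glycine, stood at 27.1 FPKM in AAV-GFP and 17.8 in AAV-CDYL. Its difference of -0.58 lay just outside the rule, and passed it with a pseudocount of 0.5 or 0.1. The ratio of Slc17a7 to Slc32a1 was 29.6 with AAV-GFP and 31.8 with AAV-CDYL, with Slc17a7 at 0.707 and Slc32a1 at 0.658 of their AAV-GFP levels. Slc17a8, the vesicular glutamate carrier of a few interneurons and other scattered cells, was low, at 2.02 and 1.28 FPKM.

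Slc6a17, a carrier of neutral amino acids on synaptic vesicles (chromosome 3, 107467543 to 107518018), had the most negative difference of all members past the floor in the AAV pair. It stood at 175 FPKM in AAV-GFP and 86.1 in AAV-CDYL, a difference of -1.02, and was the 1 member still lower under a 2-fold rule. Its ratio to Slc17a7 was 0.218 with AAV-GFP and 0.152 with AAV-CDYL, so it lay further below AAV-GFP than the vesicular glutamate carrier did. At the plasma membrane, Slc1a1, the neuronal glutamate and cysteine carrier, stood at 45.3 and 29.4 FPKM, a difference of -0.61 that passed the rule. Of its exonic bases, 31.9% also lie in another annotated gene, and for Slc32a1 this share was 24.9%. Slc6a7, the proline carrier of glutamatergic terminals, stood at 42.6 and 28.2 FPKM. Slc7a14, a lysosomal carrier of cationic amino acids found in neurons, stood at 24.6 and 17.4 FPKM. Slc6a7 and Slc7a14 had differences of -0.58 and -0.48 and were not called.

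On the glial side, Slc1a3, the glutamate carrier of astrocytes (chromosome 15, 8634124 to 8710764), stood at 93.2 FPKM in AAV-GFP and 152 in AAV-CDYL, a difference of 0.70. The order of the most abundant members changed with it: Slc6a17 ranked above Slc1a3 with AAV-GFP and below it with AAV-CDYL. Slc38a3, which moves glutamine out of astrocytes (chromosome 9, 107650634 to 107669530), stood at 17.6 and 35.3 FPKM, a difference of 0.96. Slc6a9, the glial glycine carrier, stood at 11.3 and 18.1 FPKM, with 30.2% of its exonic bases also in other genes. Slc7a11, which imports cystine in exchange for glutamate, stood at 4.67 and 6.55 FPKM, a difference of 0.41 that was not called. The ratio of Slc17a7 to Slc1a3 was 8.61 with AAV-GFP and 3.74 with AAV-CDYL.

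Slc7a7 and Slc1a5 had the most positive differences of the members past the floor in this pair. Slc7a7, which exports cationic amino acids and is abundant in macrophages (chromosome 14, 54369442 to 54417780), stood at 0.661 FPKM in AAV-GFP and 4.89 in AAV-CDYL, a 7.40-fold ratio. Slc1a5, a carrier of glutamine and other neutral amino acids (chromosome 7, 16781340 to 16798274), stood at 0.585 and 2.93 FPKM, a 5.0-fold ratio. Both passed the floor only through AAV-CDYL, which fixes their direction. With their longest annotated transcript they rested on about 33.6 and 263 fragments for Slc7a7 and 36.6 and 194 for Slc1a5. Slc6a13, a GABA and taurine carrier of the meninges, entered in the same way at 0.713 and 1.35 FPKM and was not called. Slc7a3, a carrier of arginine and lysine, stood at 4.76 and 8.75 FPKM, a difference of 0.76. Slc7a2, a related carrier of arginine, stood at 2.97 and 4.62 FPKM and was not called. Slc7a5, the large neutral amino acid carrier of the blood-brain barrier, stood at 20.6 and 26.3 FPKM, in a locus that Cuffdiff shared among 65 listed genes. Slc38a5, a glutamine carrier, stood at 1.15 and 1.88 FPKM.

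Both lysosomal members past the floor lay below AAV-GFP. Slc36a1, which exports small amino acids from lysosomes with protons (chromosome 11, 55204350 to 55236330) and whose window repeats the E-box above, stood at 29.0 FPKM in AAV-GFP and 17.9 in AAV-CDYL, a difference of -0.66. Slc38a9, the lysosomal arginine sensor of the mTOR pathway, stood at 2.74 and 2.01 FPKM. Slc7a4, a member of the cationic carrier branch, stood at 52.9 and 34.8 FPKM, a difference of -0.59 just inside the rule. Of the rest, Slc6a8, the creatine carrier, stood at 33.1 and 25.0 FPKM, Slc36a4 at 19.1 and 14.2, Slc7a6, a partner of Slc3a2, at 5.09 and 3.91, Slc38a6 at 3.20 and 4.21, and Slc38a11 at 1.44 and 0.781. None of these 5 was called, and Slc38a11 passed the floor only through AAV-GFP, which fixes its direction.

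By the size rule 6 of the 27 members, or 22.2%, were higher with AAV-CDYL, where 31.3% of all genes and 29.3% of protein-coding genes past the floor were higher. Another 4 members, or 14.8%, were lower, against 14.4% of all genes and of protein-coding genes alike. The share of members that were lower was close to that of the background, and the share that were higher was below it. With a floor of 1 FPKM in AAV-GFP itself, a restriction chosen after seeing the data, 4 of 24 were higher and 4 lower, 16.7% each way, against 21.2% of all genes higher and 17.4% lower at that floor. Scaling to a common upper quartile left 6 higher (22.2%, against 35% of all genes) and 1 lower (3.7%, against 9.98%). Slc1a1, Slc36a1 and Slc7a4 no longer passed the rule. The split over all genes moved from 68.5% to 77.8% higher among those called. Subtracting the median of all genes past the floor left 3 members higher (11.1%, against 20.3% of all genes) and 15 lower (55.6%, against 44.4%), and 31.3% higher among all genes called. Under both scalings the 8 neuronal members stayed below and the 4 glial members above AAV-GFP. For the neuronal members this was fixed in advance. The subtraction lowers every value, and the upper-quartile factor of 1.0623 is smaller than the smallest listed ratio of 1.25-fold. For the glial members only the subtraction could have changed the side. After the subtraction Slc1a3, at 0.40, and Slc6a9, at 0.33, no longer passed the rule, which left 1 glial member higher, Slc38a3, and all 8 neuronal members lower. In the authors' deposited table no member has q under 0.05; the lowest p is that of Slc1a5, p = 0.0375 with q = 0.910.

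Markers of the cell types moved with these lists. Of 10 neuron markers 8 were listed, all below AAV-GFP and 5 lower by the rule (median -0.64), with a summed level of 3712 FPKM in AAV-GFP and 2431 in AAV-CDYL. All 5 listed excitatory markers (median -0.60) and all 5 listed inhibitory markers (median -0.60) also lay below. Of 8 listed astrocyte markers of 11, 7 lay above (median 0.76; summed 157 and 610 FPKM, of which Gfap made up 5.85 and 386), while Gjb6 lay below. All 11 microglia and macrophage markers lay above (median 3.12; summed 232 and 1770 FPKM), as did all 10 oligodendrocyte markers (median 1.95). The 5 listed endothelial markers lay above (median 0.63; summed 71.1 and 156 FPKM), and so did the 6 meningeal and pericyte markers past the floor (median 1.02; 8 listed markers summed to 104 and 201 FPKM). Ptgds alone made up 92.3 and 167 FPKM of the meningeal and pericyte sum. The leukocyte markers summed to 0.759 FPKM in AAV-GFP and 37.9 in AAV-CDYL, with Cd3g, Cd79a, Cd8a and Nkg7 listed at 0 with AAV-GFP. The part of cell composition in the transporter differences was not tested.

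**Figure D2:**
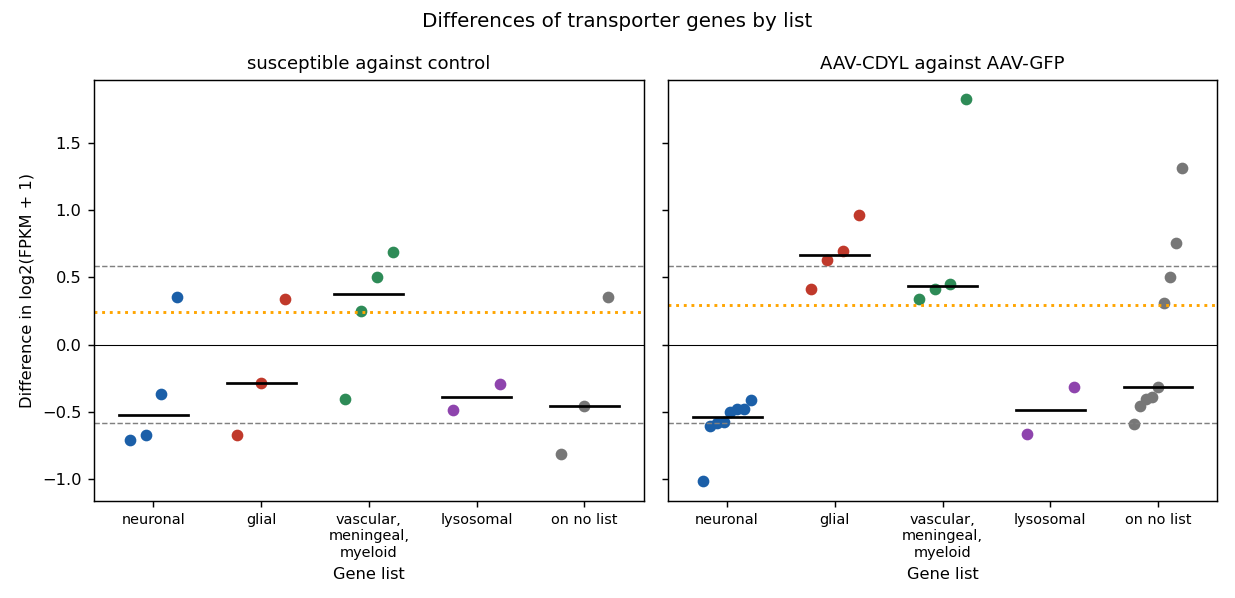
Difference in log2(FPKM + 1) of each member past the floor, by gene list, for the stress pair (left) and the AAV pair (right), with 1 point per gene and 1 library per group. Black bars are list medians, dashed lines the 1.5-fold rule, and the dotted orange line the median of all genes past the floor; with AAV-CDYL the neuronal points are all below 0 and the glial points all above, and after stress both lists hold points on both sides.

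In the stress pair, neuronal and glial members lay on both sides of control. Of 16 members past the floor, 1 was higher by the size rule and 4 were lower. That is 6.25% higher against 18.9% of all genes and 16.7% of protein-coding genes, and 25% lower against 10.8% and 9.75%. After subtracting the median of all genes past the floor, 0 members were higher, with Slc6a20a at 0.45, against 9.97% of all genes. Another 8 were lower, which is 50% against 36% of all genes. Of the 4 neuronal members past the floor 3 lay below control (median -0.52), and of the 3 glial members 2 did (median -0.29). Slc1a3, the 1 glial member above, lies in a Cuffdiff locus shared by 2 listed genes. Without shared loci 0 of 2 glial members lay above control. Over all 5334 genes past the floor the median was 0.24, with 52.3% above and 47.7% below control. It was -0.29 with the floor set in control alone, where the glial median was also -0.29, and -0.33 with a floor of 5 FPKM in either library, where the glial median was -0.17. In the authors' deposited table no member has q under 0.05, and Slc17a8 has the lowest p, p = 0.0265 with q = 0.999.

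**Figure D3:**
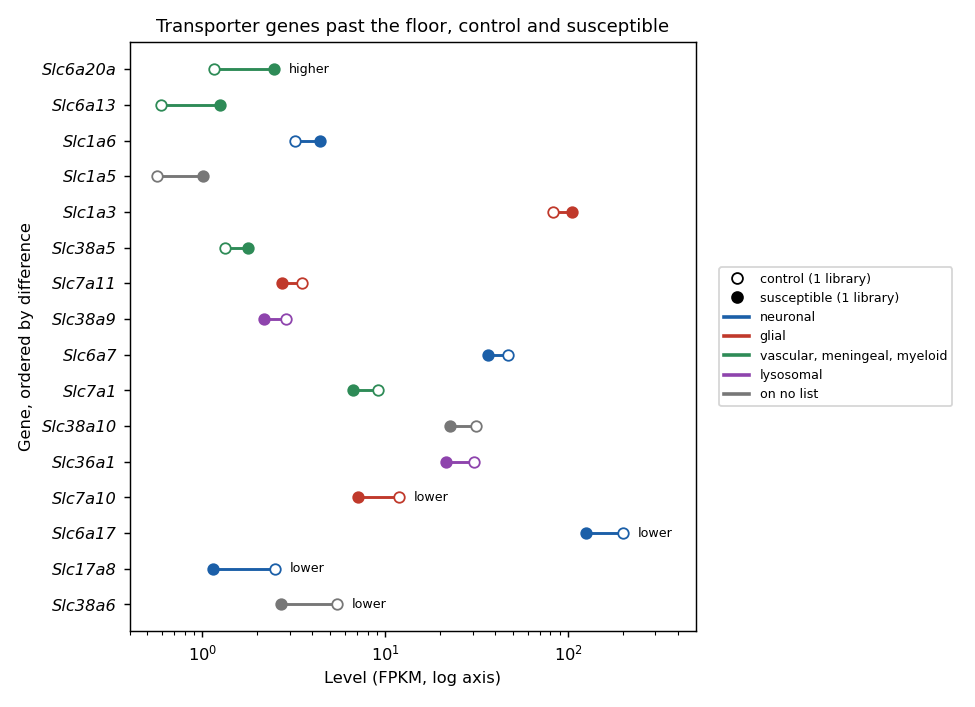
Level of the 16 members past the floor in the stress pair, in FPKM on a log axis, with open circles for the control library and filled circles for the susceptible library, and line colour for the gene list. The 4 genes at the bottom are lower by the size rule, and Slc6a20a at the top is the 1 gene that is higher.

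Slc6a17 was the most abundant member listed in the stress table, at 199 FPKM in the control library and 125 in the susceptible one, a difference of -0.67. Slc17a8 stood at 2.49 and 1.14 FPKM, a difference of -0.70, and was the other neuronal member lower by the rule. Slc6a7 stood at 47.0 and 36.3 FPKM and was not called. Slc1a6, a glutamate carrier best known from Purkinje cells, was the neuronal member above control, at 3.21 and 4.38 FPKM, and was not called either. Slc17a7, Slc32a1 and Slc1a1 were not listed in this table. Slc17a7 and Slc32a1 thus give no value for the excitatory and inhibitory vesicular carriers after stress.

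Among glial members, Slc1a3 stood at 83.0 FPKM in the control library and 105 in the susceptible one, a difference of 0.34 that was not called. Slc7a10, which carries serine and glycine and is found in astrocytes, lay the other way, at 11.9 and 7.08 FPKM, a difference of -0.67 that passed the rule. Of its exonic bases, 17.9% also lie in another gene. Slc7a11 stood at 3.53 and 2.71 FPKM and was not called. The ratio of Slc6a17 to Slc1a3 was 2.40 in control and 1.18 in susceptible, and 1.88 and 0.567 in the AAV pair.

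Slc38a6, a carrier of the glutamine family (chromosome 12, 73286779 to 73354049), had the most negative difference of the stress pair, at 5.47 FPKM in the control library and 2.69 in the susceptible one, or -0.81. The 1 member higher by the rule was Slc6a20a, a proline carrier, at 1.15 and 2.48 FPKM, in a locus shared by 6 listed genes and with 14.3% of its exonic bases in other genes. Its neighbour and close copy Slc6a20b was below the floor, at 0.111 and 0.275 FPKM, and reads of the pair may not be assigned with certainty. Slc6a13 stood at 0.594 and 1.26 FPKM and Slc1a5 at 0.568 and 1.005, both past the floor only through susceptible and neither called. Slc36a1 stood at 30.6 and 21.5 FPKM, Slc38a9 at 2.88 and 2.17, Slc38a10 at 31.5 and 22.7, Slc7a1, a carrier of arginine and lysine, at 9.16 and 6.70, and Slc38a5 at 1.34 and 1.78. None of these was called.

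The 7 listed neuron markers all lay below control after stress (median -0.47; summed 2426 FPKM in the control library and 1744 in the susceptible one), as did the 3 listed excitatory markers. Of 5 listed inhibitory markers 3 lay above. Of 6 listed astrocyte markers 5 lay above (median 0.62; summed 341 and 594 FPKM), with the water channel Aqp4 below. Of 7 listed microglia and macrophage markers 4 lay above. All 10 oligodendrocyte markers lay above (median 1.22), and 6 of 7 endothelial markers (median 0.66). Meningeal and pericyte markers summed to 136 FPKM in the control library and 641 in the susceptible one, of which Ptgds alone made up 125 and 592. Lum was listed at 0 in control. The part of cell composition in the transporter values was not tested here either.

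The floor was passed in both tables by 11 members, whose differences are given next to each other. The pairs share no library and were normalized separately. Of these, 9 differed in the same direction in both pairs, 5 below and 4 above. The same count over all genes was not made, so 9 of 11 is not shown to be particular to the members. Slc6a17 was the 1 member lower by the rule in both. Slc36a1, Slc6a7, Slc17a8 and Slc38a9 lay below in both, and Slc1a3, Slc1a5, Slc6a13 and Slc38a5 above in both. Slc1a5 and Slc6a13 did not reach 1 FPKM in control or in AAV-GFP, so the floor fixed their direction. The other 2 differed in direction: Slc38a6 was at -0.81 after stress and 0.31 with CDYL, and Slc7a11 at -0.29 and 0.41.

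**Figure D4:**
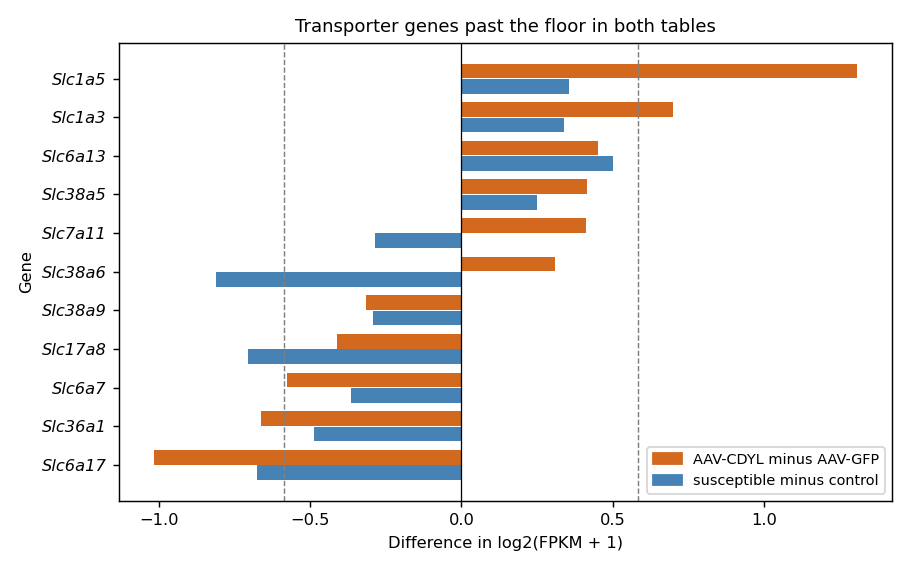
Difference in log2(FPKM + 1) for the 11 members past the floor in both tables, with orange bars for AAV-CDYL minus AAV-GFP and blue bars for susceptible minus control, 1 library per group and no error bars. Dashed lines mark the 1.5-fold rule; Slc6a17 is past it on the lower side in both pairs, and Slc38a6 and Slc7a11 point in opposite directions.

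Below the floor were 11 of the 27 members in the stress table and 10 of the 37 in the AAV table. Slc6a2, Slc6a3 and Slc6a4, the carriers that take noradrenaline, dopamine and serotonin back into terminals, are made in neurons whose cell bodies lie outside cortex. None exceeded 0.0729 FPKM in any of the 4 libraries, and Slc6a2 was listed at 0 in susceptible and in AAV-GFP. Slc17a9, a vesicular nucleotide carrier, was listed at 0 in control and at 0.0999 FPKM in susceptible, and stood at 0.0613 with AAV-GFP and 0.217 with AAV-CDYL. Slc6a5, the neuronal glycine carrier of brainstem and spinal cord, stood at 0.00966 and 0.0372 FPKM in the stress pair. Slc7a7 was just under the floor in the stress pair, at 0.984 and 0.763 FPKM. The other members below the floor were Slc38a8, Slc1a7, Slc6a12, Slc6a18, Slc6a19, Slc36a2, Slc6a20b and, after stress, Slc38a11. At these levels no difference was readable.

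Enzymes that feed or drain the carriers lay mostly with the neuronal members in the AAV pair. Of 12 genes of the glutamate, glutamine and GABA cycle 6 were listed, 5 of them below AAV-GFP and 3 lower by the rule (median -0.50). Over all genes past the floor 46.6% lay below and 14.4% were lower. Gad1, 1 of the 3, is also on the inhibitory marker list and was counted there. Gls2, a glutaminase best known from liver, stood at 8.999 and 5.44 FPKM, and Gad1, which makes GABA, at 81.0 and 53.3. Glud1, glutamate dehydrogenase, lay above, at 130 and 185 FPKM, and was not called. After stress 3 of the 12 were listed: Gpt2, an alanine transaminase, was higher at 15.4 and 24.8 FPKM, while Gad1 stood at 104 and 82.4 and Gls2 at 9.37 and 6.70.

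Of 8 partner genes and other vesicular carriers, 5 were past the floor in the AAV pair and 1 was lower by the rule, where 14.4% of all genes were. Sv2b, a synaptic vesicle protein, was that gene, at 235 and 133 FPKM, and Sv2a stood at 152 and 112. Slc3a2, the heavy chain that brings Slc7a5, Slc7a6, Slc7a7 and Slc7a11 to the membrane, stood at 73.2 FPKM in AAV-GFP and 101 in AAV-CDYL, a difference of 0.46 that was not called. Slc18a2, the vesicular monoamine carrier, stood at 1.12 and 1.41 FPKM with AAV and at 1.41 and 0.851 in the stress pair.

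Genes of the amino acid response, to which Slc7a11 and other SLC7 genes belong through ATF4, were higher with AAV-CDYL for 8 of 10 past the floor (median 0.75), against the 31.3% of all genes given above. Of the 13 genes on this list 11 were listed, and Atf4 itself has no value. Of the 10 past the floor 9 lay above AAV-GFP and 1 below. Atf3, a stress-induced transcription factor, stood at 0.508 and 9.29 FPKM and passed the floor through AAV-CDYL alone, and Sesn2, a leucine sensor, at 3.13 and 11.2. Phgdh and Psph, enzymes of serine synthesis, stood at 14.4 and 27.8 and at 7.85 and 14.2 FPKM. After stress 1 of 6 past the floor was higher, Ddit4, an inhibitor of mTOR signalling, at 22.8 and 47.1 FPKM, though all 6 lay above control. Of the NRF2 targets, the oxidative stress genes that include Slc7a11, 2 of 6 past the floor were higher with AAV-CDYL, near the 31.3% of all genes: Hmox1, heme oxygenase, at 2.36 and 15.2 FPKM, and Nfe2l2, which encodes NRF2 itself, at 3.45 and 18.6. Srxn1 was the 1 of these 6 below AAV-GFP, at 55.1 and 36.7 FPKM, and was not called. After stress 1 of 5 was higher, near the 18.9% of all genes: Hmox1, at 2.38 and 4.76 FPKM.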

How the data were processed

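Per the labels' protocols, frozen prelimbic cortex was extracted with Trizol, and a NEBNext Ultra kit turned 1 µg of RNA into each library. The authors deposited FPKM values of 2 libraries per table with their own p-values and q-values, made with Cuffdiff on mm10 per the submitters' processing notes (aligner, annotation, versions: not given in the sources used here). The authors' deposited fold column was not used. The susceptible column, spelled without a letter in the header, was matched to its title; 0 per-sample columns stayed unmapped.

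Members and lists were chosen with earlier results of these data known. Differences are log2(FPKM + 1) of the second library minus the first. Every member past the floor could be named, with up to 4 genes of each other list; 1 member and 1 gene of another list, included in the counts and medians, are not reported here by name. Positions are those of the authors' files; exon overlaps and transcript lengths are from GENCODE M21, the same build. Depth used genes with 1 transcript of 3 to 20 kb; a share of 91.0% or more of the values below 4.5 steps came within 0.15 of whole steps. Kit and counting give no strand, so overlapping genes cannot be told apart. The code of the size rule was checked on simulated data, which tests no difference between the groups. Alternatives were pseudocounts of 0.1 and 0.5, no floor, a floor of 5 FPKM, a 2-fold rule, median centring, upper-quartile scaling and leaving out shared loci. Python 3.11.15, numpy 2.4.6, pandas 2.3.3 and matplotlib 3.10.9 were used.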

Additional observations from a re-analysis of the deposited data

How the results depend on the processing

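No member called by the size rule changed sign under the alternatives run, but this was fixed in advance. Pseudocounts, floors, the 2-fold rule and leaving out shared loci keep the sign of every difference. The upper-quartile factors were smaller than the smallest listed ratio of 1.25-fold, and centring subtracted less than the rule's cutoff. Neither the neuronal nor the glial median changed sign. For the negative medians, only settings that choose which members are kept could have changed the sign. For the positive glial median with CDYL centring could have done so too, and took it from 0.66 to 0.37. Medians of the other lists were not rerun. Of 355 values of single members, 308 kept their side of the rule, 19 lost it and 28 gained it. These are the same members repeated over the settings. Some settings only choose which members are kept, and so could not change a call. They are no floor (43 values), a floor of 5 FPKM (26), the floor set in the first library (38) and leaving out shared loci (33). With a pseudocount of 0.1, the stress pair had 3 higher members (18.8%, against 27.8% of all genes). The AAV pair then had 8 lower ones (29.6%, against 18.7%). With 0.5 the stress pair had 2 higher (12.5%, against 23.4%). Without a floor, 15 members in both tables had the same sign and 5 the opposite, and the neuronal median after stress was -0.023. With a floor of 5 FPKM these counts were 4 and 0. At that floor 0 members were higher after stress, against 15.5% of all genes, and the glial median after stress was -0.17. Under the 2-fold rule 2 members were higher (7.41%, against 17.7% of all genes) and 1 lower (3.7%, against 1.8%) with CDYL. After stress 0 were higher and 0 lower, against 6.86% and 2.55% of all genes. Centring subtracted 0.24 from the stress pair and 0.30 from the AAV pair. It gave 3 higher and 15 lower with CDYL and 0 and 8 after stress, with glial medians of 0.37 and -0.53 and a neuronal median of -0.84 with CDYL. Upper-quartile scaling left 1 lower with CDYL (3.7%, against 9.98% of all genes). Without shared loci, 0 were higher after stress, against 18.9% of all genes with shared loci kept. The glial median there was -0.48, and 1 member had opposite signs. The floor and shared-locus values follow from which members are kept, and the 2-fold counts from the higher cutoff. The centring, upper-quartile and pseudocount values follow from the recomputed differences. No paired analysis was possible because each group has 1 library. Because the tables list no gene with a small difference, the median of genes past the floor depends on which side holds more genes: with the floor set in the first library, chosen after seeing the data, it was -0.29 after stress and -0.32 with CDYL, and with a floor of 5 FPKM -0.33 and -0.34. Depth limits members under 1 FPKM, which rest on few fragments.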
